A study of Mus musculus with 2 samples.

Results

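The genes considered here encode the histones, the proteins that package DNA into nucleosomes, and the question is where in these genes the transcription factor Aiolos gave a peak. Aiolos, the product of Ikzf3, was mapped by CUT&RUN, in which an antibody directs a nuclease fused to protein A to the sites that the protein occupies. The cells were natural killer (NK) cells from mouse spleen, grown in culture with interleukin-15 at 50 ng/ml, with at least 500000 cells per sample. The series held 2 libraries, 1 made with the antibody to Aiolos and 1 processed alike without a primary antibody. No other genotype, strain, treatment or time distinguished them in the labels. The authors deposited 1 list of 1404 peaks on the mouse build mm10, so every value below comes from the antibody library as 1 sample, no replicate error exists and no test between conditions was made.

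A histone peak was a peak whose gene symbol in the authors' annotation was that of an H1, H2A, H2B, H3 or H4 gene (the H1f, H2ac, H2bc, H3c and H4c series with a number, H2ax, H2az and H3f). The members were thus selected on a measured value, the presence of a called peak, and their number and their enrichment describe them without testing anything. The rule found 25 peaks at 18 genes, out of 1404 peaks at 1276 genes. The gene table held 74 protein-coding genes with such symbols, so 24.3% of them had a peak (95% exact Clopper-Pearson interval 15.1 to 35.7), beside 5.38% of all 21900 protein-coding genes. The annotation gave all 18 genes at least 1 peak centred within 1000 bp of the annotated transcript start, a promoter peak here. The share of the 74 genes with a promoter peak was thus also 24.3%, beside 3.79% of all 21900 protein-coding genes. With a window of 500 bp, 15 histone genes had one. The authors' list held no peak under a −log10 q of 1.31, and the weakest histone peak, in H2bc14, stood at 1.67. Another 3 histone genes carried older symbols in the list and fell outside the rule: H2az1, H2ax and H2ac22. By gene identifier there were 28 peaks at 21 genes.

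Histones are made in bulk when a cell copies its DNA, and most of their genes are replication-dependent: short, without introns, present in many copies and grouped in clusters. Their transcripts end in a stem-loop in place of a poly(A) tail, and many H2A and H2B genes lie head to head and share the stretch between their starts. Replacement histones are encoded by single genes elsewhere in the genome and are made throughout the cell cycle. NK cells divide when cultured with interleukin-15. Aiolos belongs to the Ikaros family of zinc finger proteins, which is best known in lymphocytes.

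The stretches before the starts carry known promoter elements, and the following are shown because a peak lay on them with its summit inside or next to them. Each is the 250 bases before the start in RefSeq on GRCm38.p6, the assembly of mm10, read in the direction of transcription. Capitals mark 3 elements, in either orientation. The CCAAT element is the one that NF-Y binds. The octamer, ATTTGCAT, is bound by POU factors. The TATA element was searched as TATAAA.

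H3c11, chr13:21783398-21783647, minus strand: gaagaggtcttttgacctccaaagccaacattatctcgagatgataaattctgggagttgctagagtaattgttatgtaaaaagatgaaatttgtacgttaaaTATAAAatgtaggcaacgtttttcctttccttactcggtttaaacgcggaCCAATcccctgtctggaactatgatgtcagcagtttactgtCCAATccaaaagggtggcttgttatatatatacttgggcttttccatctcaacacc

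H3c4, chr13:23575513-23575762, plus strand: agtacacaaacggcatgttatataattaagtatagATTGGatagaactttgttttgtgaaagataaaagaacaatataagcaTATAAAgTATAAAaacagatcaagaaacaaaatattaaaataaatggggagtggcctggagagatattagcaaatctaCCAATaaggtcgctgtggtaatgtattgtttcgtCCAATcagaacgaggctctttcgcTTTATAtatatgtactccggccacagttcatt

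H2bc14, chr13:21721794-21722043, plus strand: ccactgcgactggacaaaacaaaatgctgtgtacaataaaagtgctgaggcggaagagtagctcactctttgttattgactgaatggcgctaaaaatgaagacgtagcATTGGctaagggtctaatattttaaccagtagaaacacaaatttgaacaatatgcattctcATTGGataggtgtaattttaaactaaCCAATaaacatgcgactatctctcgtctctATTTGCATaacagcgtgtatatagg

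H2ac6, chr13:23683960-23684209, minus strand: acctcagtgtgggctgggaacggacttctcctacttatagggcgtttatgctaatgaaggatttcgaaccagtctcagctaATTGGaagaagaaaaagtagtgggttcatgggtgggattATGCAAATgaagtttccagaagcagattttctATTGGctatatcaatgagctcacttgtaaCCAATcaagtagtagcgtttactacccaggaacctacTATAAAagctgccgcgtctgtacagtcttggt

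H4c2, chr13:23756687-23756936, plus strand: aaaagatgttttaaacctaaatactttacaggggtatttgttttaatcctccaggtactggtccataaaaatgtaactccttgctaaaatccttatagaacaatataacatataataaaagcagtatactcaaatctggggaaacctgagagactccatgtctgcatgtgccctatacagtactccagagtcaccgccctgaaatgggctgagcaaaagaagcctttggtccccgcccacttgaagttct

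H3c11, the gene with the strongest histone peak, held 2 CCAAT elements, whose first bases lay 97 and 56 bases before the start. It also held a TATA element at 147 bases. H3c4 held CCAAT at 215, 90 and 56 bases and TATA elements at 168, 161 and 32 bases before the start. Those at 215 and 32 bases stood on the opposite strand. H2bc14 had 3 CCAAT elements and an octamer 25 bases before the start, and H2ac6 had 3 CCAAT elements, an octamer and a TATA element. None of these letters stood in the H4c2 window. The peaks of H2bc14, H2ac6 and H4c2 covered their windows whole. In the rule as a whole, 13 of 25 peaks overlapped at least 1 such window, 8 windows were covered whole, and 6 summits lay inside one.

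Across all 25 histone peaks the fold enrichment over the local background had a median of 6.94 and ran from 4.02 to 10.96, beside a median of 6.44 and a range of 3.63 to 25.3 over all 1404 peaks. The fold is the authors' value, and the tags behind it, recovered from the fold and p-value, numbered 4 to 15 at histone summits (median 9) and 4 to 63 in the whole list (median 8). At this depth each fold is imprecise: the 95% exact Poisson intervals given with the folds treat the background as fixed and cover counting error only. No histone interval lay wholly above the median of all peaks, where 83 of 1404 peaks did, and the highest lower bound was 6.07, at H3c11. The order of the medians turned among peaks whose −log10 q reached the list's median, with 7.41 for histone peaks and 8.05 for all. Of the 25 histone peaks, 16 exceeded the median fold of the list. The local background at histone peaks had a median of 0.279 tags, beside 0.267 over all peaks, and 5 histone peaks (20%) stood at the list's lowest background of 0.186 tags, beside 26.0% of all peaks.

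**Figure D1:**
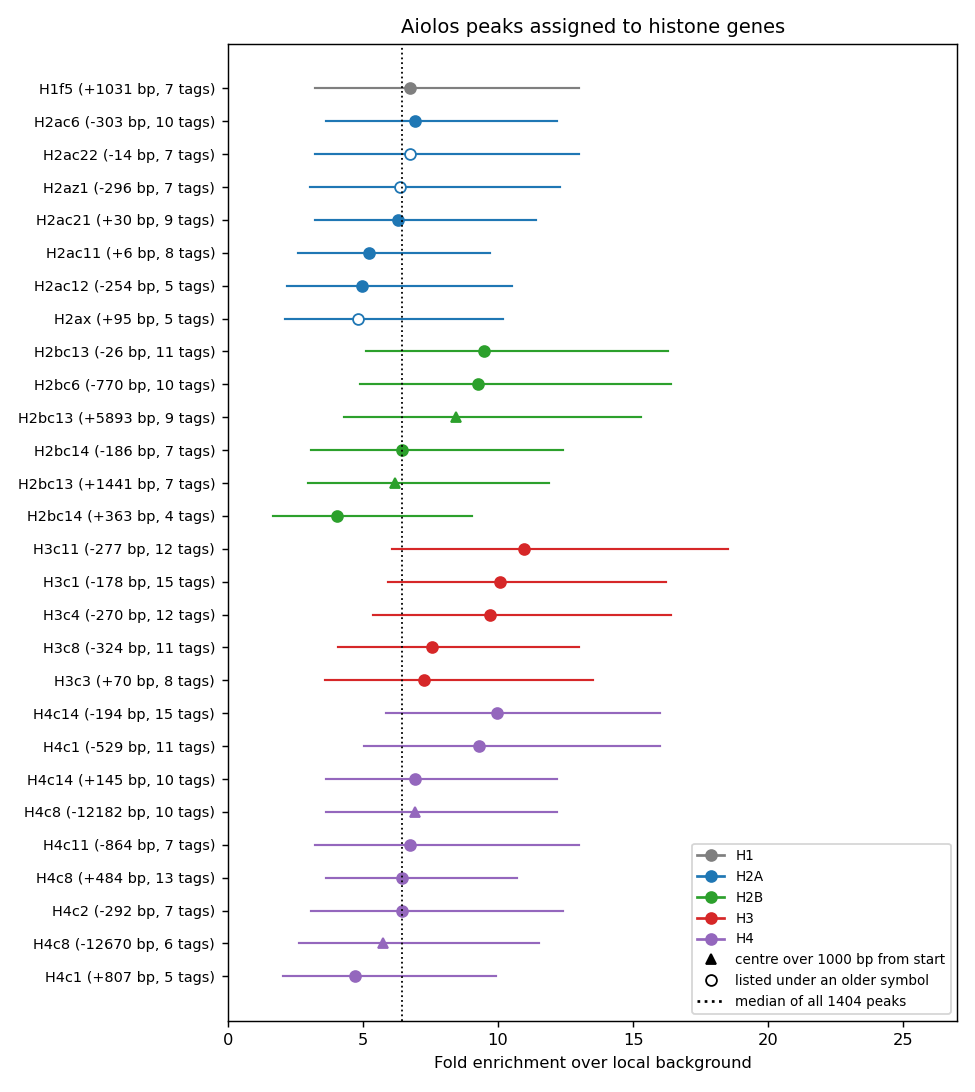
Fold enrichment of each histone peak over its local background (x axis, no unit) by gene, with the summit position and tags in the labels. Horizontal lines are 95% Poisson counting intervals, colours are histone types, open circles are the 3 genes under older symbols, and the dotted line is the median of all 1404 peaks at 6.44. All 5 H3 peaks lie to its right and every interval crosses it.

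The H3 genes, which encode a core histone with a tail that carries many regulatory marks, had the highest median fold of the types. Peaks were assigned to 5 of 16 H3 genes, 1 peak each, with a median of 9.71-fold and a range of 7.24 to 10.96. H3c11 had 10.96-fold enrichment (6.07 to 18.5, from 12 tags) at chr13:21783481-21783822, which ranked 86 of 1404, and its summit lay 277 bp upstream of the annotated start. H3c1 had 10.1-fold enrichment (5.93 to 16.2, from 15 tags), with the summit 178 bp upstream. H3c4 followed at 9.71-fold (5.38 to 16.4, from 12 tags), with the summit 270 bp upstream. All of these genes are replication-dependent, and their summits lay between 277 and 178 bp upstream. H3c8 stood at 7.57-fold (4.09 to 13) with its summit 324 bp upstream, and H3c3 at 7.24-fold (3.58 to 13.5) with its summit 70 bp downstream of the annotated start and 11 bp upstream of the RefSeq start. The 5 intervals overlapped one another.

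The H4 genes, which encode the partner of H3 in the nucleosome core, held 9 peaks at 5 of 12 genes. Their median was 6.75-fold, with a range of 4.69 to 9.96, and 7 of the 9 were promoter peaks, which alone had the same median. H4c14, the H4 gene of the chromosome 3 cluster, had 2 promoter peaks on either side of its start. The upstream summit, 194 bp before the start, had 9.96-fold enrichment (5.85 to 16, from 15 tags), and the downstream summit, 145 bp inside the transcript, had 6.94-fold (3.65 to 12.2, from 10 tags). H4c1 also had 2 peaks, the stronger at 9.30-fold (5.03 to 16, from 11 tags) with its summit 529 bp upstream of the H4c1 start. That peak reached 36 bp into H3c1, the neighbouring gene upstream, so it can be credited to either gene. The weaker H4c1 peak, at 4.69-fold (2.05 to 9.91, from 5 tags), lay 181 bp past the end of the transcript. H4c2 had 6.44-fold enrichment with the summit 292 bp upstream, and H4c11 had 6.75-fold with the summit 864 bp upstream. H4c8 was given 3 peaks, and only the one at 6.45-fold (3.65 to 10.7, from 13 tags), with its summit 15 bp past the transcript end, was near the gene.

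The H2B genes encode a core histone that pairs with H2A, and 3 of 16 had an assigned peak, with 6 peaks between them. Their median was 7.44-fold (7.86 over the 4 promoter peaks alone), and the range of 4.02 to 9.47 included the lowest histone peak. H2bc13 had 3 peaks, of which 1 was at the promoter, with its summit 26 bp upstream of the annotated start (14 bp inside the transcript by the RefSeq start) and 9.47-fold enrichment (5.12 to 16.3, from 11 tags). Its others lay beyond the gene's end, with summits 1441 and 5893 bp past the start, at 6.20-fold and 8.43-fold. H2bc14 had a peak 186 bp upstream at 6.44-fold (3.07 to 12.4) and a weaker one 363 bp inside the transcript at 4.02-fold (1.68 to 9.05, from 4 tags). H2bc6 had 9.28-fold enrichment (4.89 to 16.4, from 10 tags), but the authors' annotation reached it through a transcript of 37455 bp. The summit of that peak lay inside the body of H1f4, which encodes a linker histone, and the H1f4 start was just within 1000 bp of the peak centre.

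The H2A genes, whose product forms the dimer with H2B, had 4 assigned peaks at 4 of 20 genes. The folds were 6.94 at H2ac6 (3.65 to 12.2), 6.31 at H2ac21 (3.23 to 11.4), 5.21 at H2ac11 (2.58 to 9.70) and 4.97 at H2ac12 (2.18 to 10.5). Their median of 5.76 was the lowest of the types, and only H2ac6 exceeded the median of all peaks. The H2ac6 summit lay 303 bp upstream, inside the body of the neighbouring gene H2bc4, and that of H2ac12 lay 254 bp upstream. H2ac21 and H2ac11 had their summits close to the start, 30 and 6 bp inside the transcript by the annotation. H2ac22, listed under an older symbol, added a peak of 6.75-fold (3.22 to 13). The H1 genes encode the linker histones that bind DNA between nucleosomes, and 1 of 10 had an assigned peak. That peak, at H1f5 with 6.75-fold enrichment (3.22 to 13, from 7 tags), had its summit 1031 bp past the start and began 129 bp past the transcript end.

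The types could not be ordered beyond counting error. Among replication-dependent genes alone, a peak centre lay within 1000 bp of a known start at 2 of 6 H1, 8 of 17 H2A, 6 of 14 H2B, 5 of 11 H3 and 5 of 12 H4 genes. The shares were 33.3% (4.33 to 77.7), 47.1% (23.0 to 72.2), 42.9% (17.7 to 71.1), 45.5% (16.7 to 76.6) and 41.7% (15.2 to 72.3), and all 5 exact intervals overlapped. These intervals take genes as independent, but 1 peak can count for 2 genes. The H2A and H2B counts share the peaks of their pairs. The starts of H3c1 and H4c14 were known only through their peaks, which raises the H3 and H4 shares. The median background at promoter peaks was 0.586 tags for H2A and between 0.186 and 0.339 for the other types, and its part in the lower H2A folds was not tested.

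Near-start counts differ from assigned counts because the annotation names 1 gene per peak while histone genes crowd together. Of 71 histone genes with a known start, 28 (39.4%) had a peak centre within 1000 bp. The share was 4.76% among 17492 protein-coding genes, by the starts of the promoter table alone. The shares were not measured alike. H4c14, H3c1 and H2ax were absent from that table, and their starts were known only because the peak list gave them a peak. By promoter table starts alone, 25 of 69 histone promoters had a peak centre within 1000 bp. The genes gained by counting starts were H2ac20, H2ac13, H2bc22, H2bc12, H2bc11, H2ac7 and H1f4, besides the 3 under older symbols. H2ac7, for example, lay within the window of the H3c4 peak.

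The replication-dependent genes fell into clusters on chromosomes 3 and 13, here split wherever neighbouring histone genes were more than 100 kb apart. The chromosome 3 cluster, 10 genes over 50.3 kb, held 3 peaks at 2 genes, H2ac21 at its lower end and H4c14 toward the other. No peak lay between the peaks of these genes, a stretch that includes H3c15, H2ac19, H2ac18 and H3c14. On chromosome 13, 16 of 53 genes had an assigned peak (30.2%, 18.3 to 44.3). Its block 1, from H2bc13 to H2ac24, held 17 genes over 118 kb and 8 peaks within 1000 bp of the block, including that of H2ac22. All 8 lay below the start of H2bc22, and no peak lay from H2bc23 to H2ac24 at the upper end. A stretch without a peak, with H4c12, H2ac15 and H2bc15, separated the peaks at H1f5, H3c11 and H2ac22 from those nearer the lower end. Block 2 was short, with 5 genes over 8.54 kb, and both its peaks lay on H2A–H2B pairs. Block 3, from H4c8 to H1f1, held 29 genes over 233 kb and 10 peaks, of which H4c2, H4c1 and H3c1 with their neighbour H3c3 took 5. Scaled to length, the blocks had 5.96 peaks per 100 kb on chromosome 3 and 6.79, 23.4 and 4.29 per 100 kb in blocks 1 to 3. Peaks within 1000 bp of a block counted, but its length left these flanks out, which raises the value most in the short block 2. The value there rests on 2 peaks, and no density outside the clusters was computed. The H2bc1 and H2ac1 genes, in a pair of their own, had no peak.

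**Figure D2:**
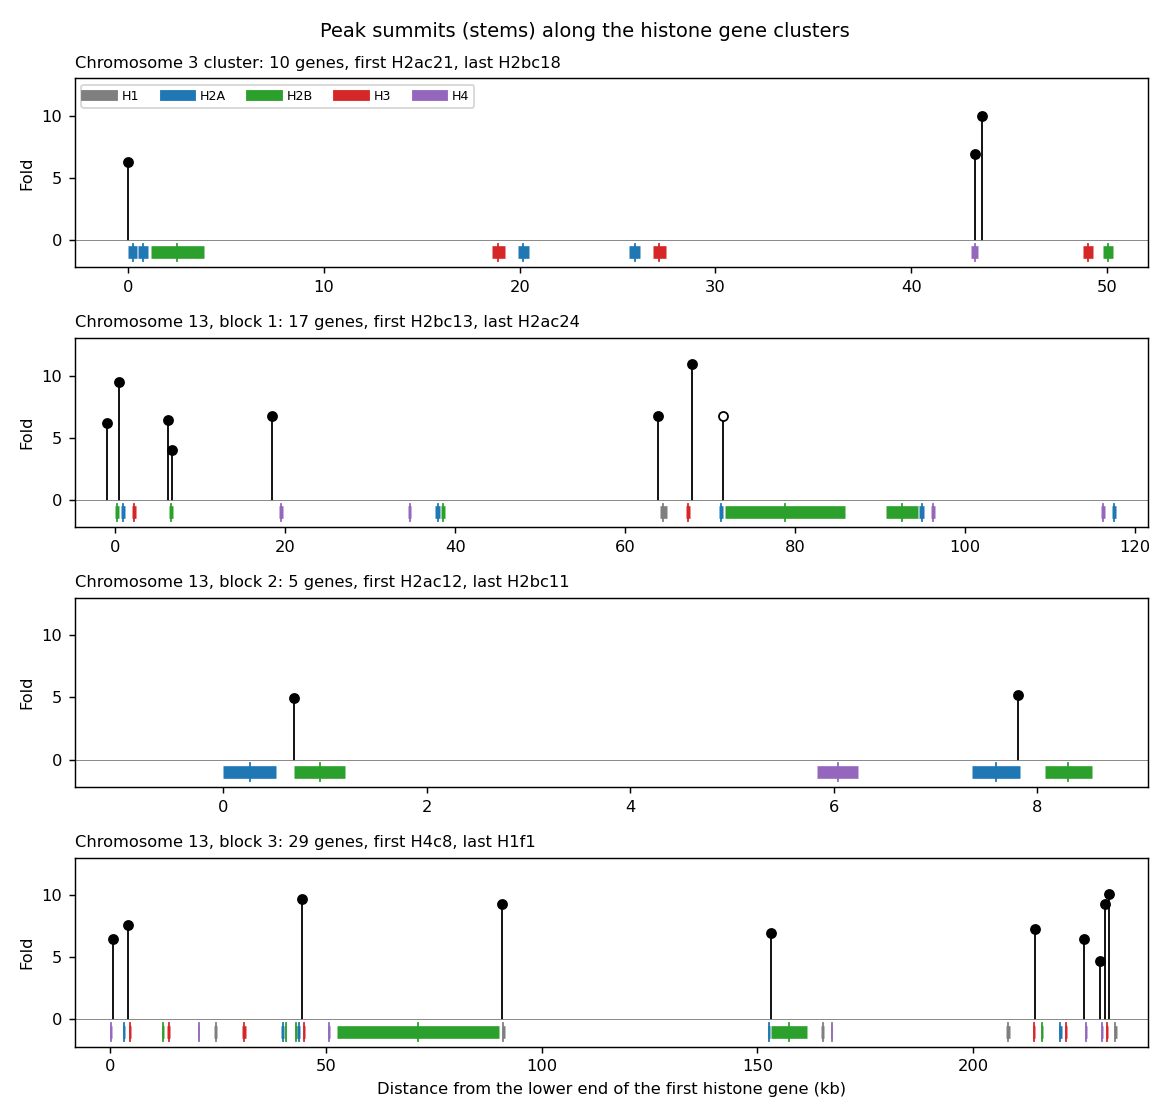
Position of peak summits (stems, with fold enrichment on the y axis) along the histone clusters, in kb from the lower end of the first gene, with genes as coloured bars and their midpoints as ticks. The open circle is H2ac22, under an older symbol. The 3 peaks assigned from beyond a block's edge by more than 2 kb are not drawn.

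Of 9 pairs of histone genes with starts facing away from each other and at most 1000 bp apart, each joined an H2A with an H2B gene, 164 to 281 bp apart with a median of 180 bp. A peak lay over the shared stretch of 4 pairs. The share over divergent pairs of other genes was not computed, so the count shows nothing particular to histone pairs. Among single protein-coding genes, a different unit, 4.76% of 17492 had a start within 1000 bp of a peak centre. The shared stretches of 3 of them, and of the H2ac8/H2bc8 pair without a peak, are shown on the plus strand from the minus-strand gene to the plus-strand gene, with the same elements in capitals.

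H2bc13/H2ac13, chr13:21716184-21716411, plus strand: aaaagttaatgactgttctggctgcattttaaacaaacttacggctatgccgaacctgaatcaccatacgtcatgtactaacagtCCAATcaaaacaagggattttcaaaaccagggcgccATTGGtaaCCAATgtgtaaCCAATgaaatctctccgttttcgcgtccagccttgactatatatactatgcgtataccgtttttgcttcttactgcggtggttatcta

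H2ac11/H2bc11, chr13:22042950-22043197, plus strand: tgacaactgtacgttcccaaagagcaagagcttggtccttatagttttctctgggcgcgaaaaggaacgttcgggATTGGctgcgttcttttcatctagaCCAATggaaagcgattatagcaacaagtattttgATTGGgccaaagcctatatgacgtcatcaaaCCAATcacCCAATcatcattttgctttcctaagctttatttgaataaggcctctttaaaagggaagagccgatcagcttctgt

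H2ac12/H2bc12, chr13:22035644-22035820, plus strand: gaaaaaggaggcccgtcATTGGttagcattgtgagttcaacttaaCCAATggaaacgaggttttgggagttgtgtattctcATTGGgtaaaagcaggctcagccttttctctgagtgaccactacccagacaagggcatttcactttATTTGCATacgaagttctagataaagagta

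H2ac8/H2bc8, chr13:23571221-23571399, plus strand: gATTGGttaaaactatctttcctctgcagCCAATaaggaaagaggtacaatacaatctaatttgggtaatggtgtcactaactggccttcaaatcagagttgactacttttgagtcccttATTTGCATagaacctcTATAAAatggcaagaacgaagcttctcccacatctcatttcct

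The H2bc13/H2ac13 stretch held 4 CCAAT elements and lay under the strongest of these peaks, at 9.47-fold (5.12 to 16.3), which covered both starts. The H2ac12/H2bc12 stretch, with 3 CCAAT elements and an octamer, lay under a peak of 4.97-fold (2.18 to 10.5) that also covered both starts. The H2ac11/H2bc11 peak, at 5.21-fold (2.58 to 9.70), and the H2ac22/H2bc22 peak, at 6.75-fold (3.22 to 13), covered only the H2A start. Each of the 4 summits lay at the edge of its shared stretch and not in its middle. By RefSeq starts, in 3 pairs the summit was 11 to 16 bp inside the minus-strand gene, and in H2ac12/H2bc12 it fell 1 bp inside the plus-strand gene H2bc12. The stretch of H2ac8/H2bc8, with 2 CCAAT elements, a TATA element and an octamer, had no peak, and neither did those of H2ac15/H2bc15, H2bc23/H2ac23, H2bc7/H2ac7 and H2bc1/H2ac1. Genes of unknown strand (H2bc21, H3c7 and H2bc4) could not enter the pairs, and H2bc4 lies beside the H2ac6 start under the H2ac6 peak, so a pair with a peak may be missing. A count of 4 of 9 rests on weak peaks: it was 2 of 9 when peaks under the median −log10 q were left out. The peak credited to 1 gene of a pair gives no evidence on which of the genes it belongs to.

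**Figure D3:**
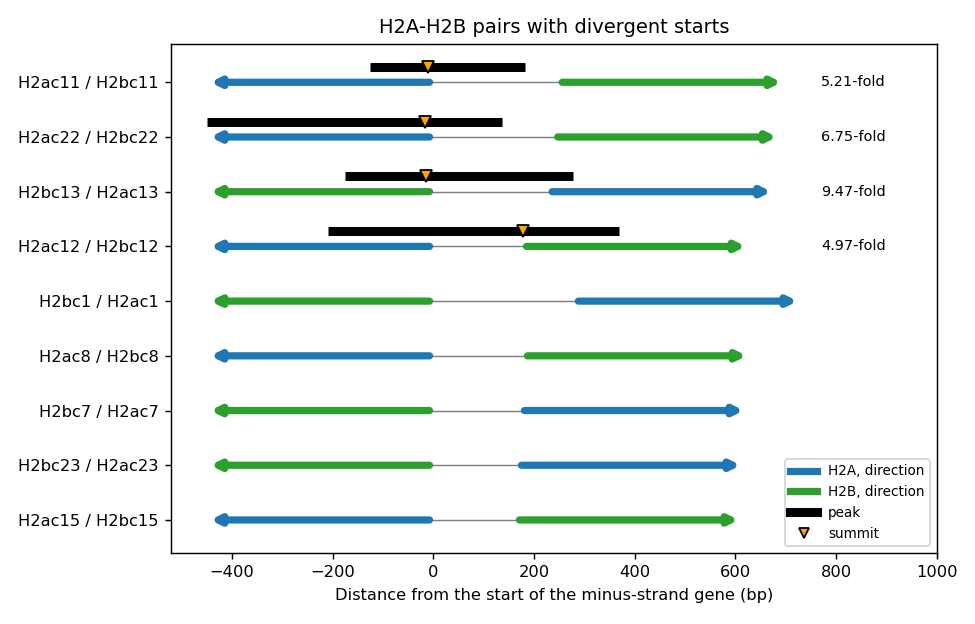
The 9 H2A–H2B pairs aligned on the start of the minus-strand gene (x axis in bp), with arrows for the direction of each gene, not its length. Black bars are peaks and triangles their summits, with the fold at the right. The 4 pairs with a peak are at the top, and each summit lies at an edge of the shared stretch.

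All 18 assigned genes were replication-dependent, 18 of 63 such genes (28.6%, 17.9 to 41.3). Of the 10 replacement genes none had a peak under its symbol, which allows a share of up to 30.8% (exact interval), and H2az1 had a peak under its older symbol. H2az1 encodes the H2A.Z variant found at many active promoters, and its peak of 6.38-fold (3.04 to 12.3, from 7 tags) had its summit 296 bp upstream. H2ax encodes the variant that is phosphorylated around DNA breaks, and its transcripts are of both kinds. It had a promoter peak of 4.83-fold (2.11 to 10.2, from 5 tags) with the summit 95 bp inside the transcript. The other replacement genes, H3f3a, H3f3b, H3f3c, H3f4, H2az2, H1f0, H1f7, H1f8 and H1f10, had no assigned peak and none near a start. The classes were set by symbol alone. H3f4, at chr11:58961711-58962273, lies close to the histone pseudogene H2bu1-ps described below, so its place among the replacement genes is uncertain. By start, 26 of 60 replication-dependent genes and 1 of 10 replacement genes had a peak within 1000 bp, and the difference was not tested. The 26 include H3c1 and H4c14, whose starts were known only through their peaks. Over all protein-coding genes, 5.38% had an assigned peak and 4.76% of 17492 had a start within 1000 bp of a peak centre. The interval of the replacement genes includes 5.38%, so these 10 genes show no lack of peaks beside all genes.

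Promoter peaks made up 21 of the 25 histone peaks (84.0%, 63.9 to 95.5), beside 64.8% of all peaks (62.3 to 67.3). Their median summit position was 186 bp upstream of the start (−186 bp, quartiles −292 and 70), beside −79.5 bp over all promoter peaks (quartiles −238 and 96). The zone 251 to 500 bp upstream held 6 histone summits (28.6%), beside 16.8% of all promoter summits. The 250 bp just upstream held 4 (19.0%), beside 33.3%. Both contrasts depend on the start used. Measured from RefSeq starts, which 18 of these peaks could be given, the farther zone held 3 histone summits (16.7%), beside 20.8% of 702 promoter summits, and the nearer zone held 5 (27.8%), beside 31.9%. The median position was then −182.5 bp, beside −131 bp. The histone peaks were broad for the list, with a median width of 309 bp (210 to 858), beside 265.5 bp. Of all 25 summits, 8 lay inside the body of a histone gene, and 4 lay past the end of their transcript but within 1500 bp of its start, at H2bc13, H1f5, H4c8 and H4c1. Of the histone genes, 13 of 18 had a single peak (72.2%), beside 91.9% of all 1276 genes, while H2bc14, H4c14 and H4c1 had 2 and H2bc13 and H4c8 had 3. The counts of H2bc13 and H4c8 include 3 peaks beside tRNA genes that are theirs by name only, as described below.

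**Figure D4:**
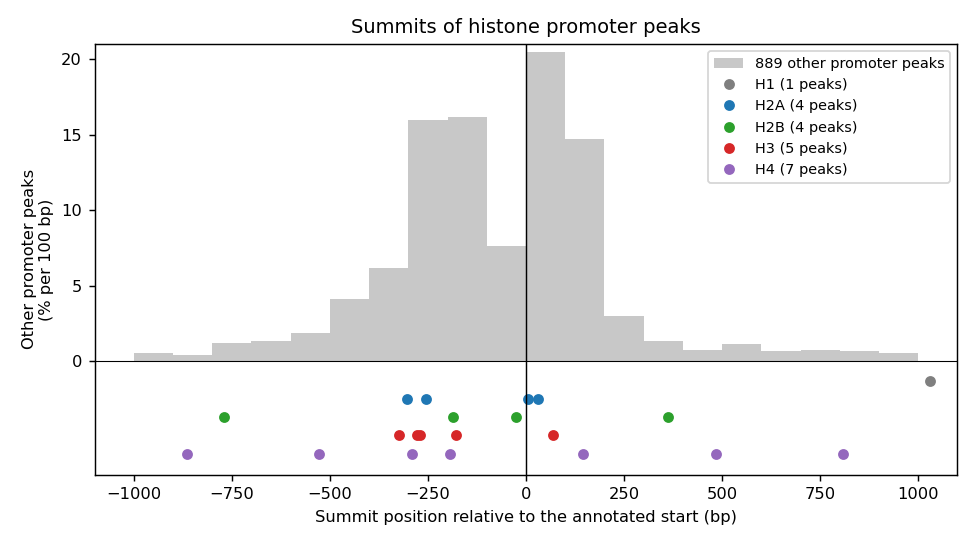
Summit positions of the 21 histone promoter peaks by type (points below the line) against the percentage per 100 bp of the 889 other promoter peaks (grey bars), in bp from the annotated start, upstream negative. Of the 5 H3 summits, 4 lie between 324 and 178 bp upstream.

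Promoter elements differed between histone types. In the 250 bases before the start, CCAAT stood in 79.7% of 69 histone promoters (68 genes matched the RefSeq promoter table), beside 33.8% of all 32851 promoters. Among replication-dependent genes it stood before all 6 H1, all 17 H2A and all 15 H2B starts, 8 of 10 H3 starts and 3 of 11 H4 starts. The octamer stood in 14 histone promoters (20.3%), beside 1.60% of all, and among replication-dependent genes in 6 H2A and 7 H2B promoters and in no H1, H3 or H4 promoter. The TATA element stood in 42.0%, beside 12.4%. The H1 box, AAACACA, known from H1 promoters, stood in 5 of 6 replication-dependent H1 promoters, 112 to 122 bases before the start, and in 6.25% of all promoters. The core TGACGT of cyclic AMP response elements stood in 21.7% of histone promoters, beside 6.47%, including that of H4c1, and TTTGGCGC, an E2F element, in none of the 69, beside 0.417%. TGGGAA, a sequence that Ikaros family proteins bind, stood in 11 histone promoters (15.9%), beside 21.6% of all, in 5 H2A, 4 H2B and 2 H3 promoters. Shorter or other forms of the Ikaros site were not searched. TGANTCA, the AP-1 element, stood in 4 (5.8%), beside 6.75%, and the H2bc13/H2ac13 stretch shown above held it. Both strands were searched for each. Where the windows of paired starts overlap, an element can count in both promoters.

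Of the 25 histone promoters with a peak centre within 1000 bp, 22 held CCAAT, 5 the octamer, 6 TGGGAA and 3 the AP-1 element. Of the 44 without, 33 held CCAAT, 9 the octamer, 5 TGGGAA and 1 the AP-1 element. The TATA element stood in 10 and 19, and the core of the cyclic AMP response element in 7 and 8. These are letters in a window and not measured sites. Paired starts share bases, so 1 element can count in both promoters of a pair. The AP-1 element of H2bc13 and H2ac13 is the same bases, as is the TGGGAA of H2ac11 and H2bc11. The median GC content was 43.2% with a peak and 47.4% without, beside 45.6% for all histone promoters and 52.4% for all promoters.

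Some histone promoters have near-identical copies, where short reads cannot be placed with certainty. Whether the authors kept such reads is not given in the sources used here. Copies were counted as the share of the 221 words of 30 bases in each 250-base window that also stood in a promoter elsewhere. At least 50% were shared in 9 of the 44 histone promoters without a peak and in 0 of the 25 with a peak. The 9 were H3c15 and H3c14 (91.4%), H2ac19 and H2ac18 (63.3%), H4c17 and H4c18 (99.5%), H2bc23 (100%), H2ac24 (92.3%) and H2ac23 (67.4%). All of them lie in the stretches of the chromosome 3 cluster and of block 1 described above as having no peak. The highest share with a peak was 35.3%, in H4c11. The part of copy number in the missing peaks was not tested, so a missing peak at these 9 genes cannot be read as absent binding.

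**Figure D5:**
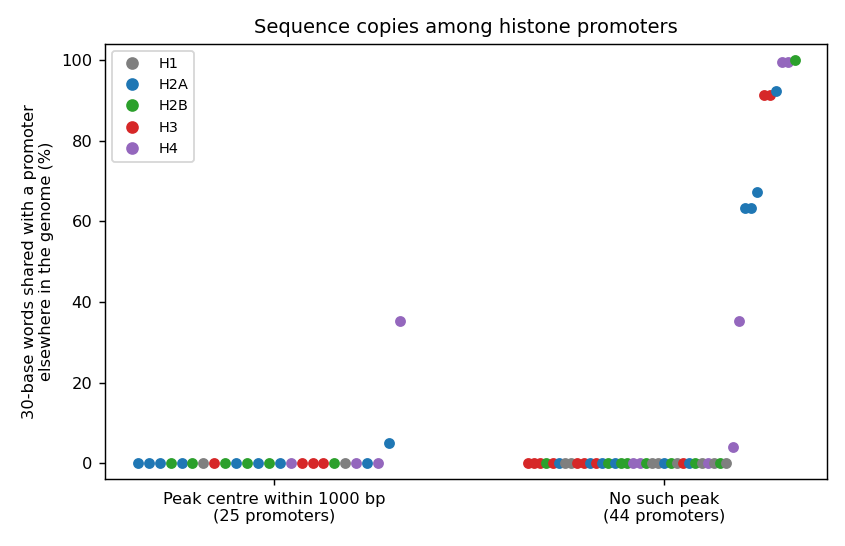
Share of 30-base words in each histone promoter that also stand in a promoter elsewhere (y axis, percent), for 25 promoters with a peak centre within 1000 bp and 44 without, coloured by type and spread sideways for view. All 9 promoters at 50% or more lie on the right.

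The 4 histone peaks away from promoters were the H2bc13 pair past the gene and the H4c8 pair upstream, and 3 of them lay beside tRNA genes. The H4c8 peaks, 12670 and 12182 bp upstream at 5.75-fold (2.63 to 11.5) and 6.94-fold (3.65 to 12.2), lay 36 bp from n-TStga1 and 1 bp from n-TQttg4. The H2bc13 peak at 8.43-fold (4.31 to 15.3) lay 207 bp from n-TGgcc7. The peak list assigns no gene to tRNA genes in these cases, so these 3 peaks are histone peaks by name only. Within 1000 bp of any of the 430 tRNA genes of the table lay 34 of all 1404 peaks (2.42%), and 105 tRNA genes lie on chromosome 13. Another 2 such peaks in the same region were credited to C230035I16Rik, at 9.66-fold and 7.57-fold.

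Genes that act on histone genes were taken from lists. Of 30 measured genes for histone gene transcription and mRNA processing, 5 had a peak (16.7%, 5.64 to 34.7), beside the 5.38% of all genes. Pou2f1, which encodes the octamer-binding factor Oct1, had a promoter peak of 6.95-fold (3.76 to 12), and Creb1, whose product binds cyclic AMP response elements, one of 5.05-fold (2.41 to 9.73). Slbp, which encodes the protein that binds the histone stem-loop, had 5.07-fold enrichment (2.67 to 8.93) at its start, and Srrt, which acts in RNA 3' end processing, 5.63-fold (2.58 to 11.3). Yy1 was given a peak 27.5 kb away at 5.06-fold. Of 28 histone chaperone genes 3 had a peak: Daxx, whose product deposits an H3 replacement protein, at 8.05-fold (4.12 to 14.6), Tonsl at 5.08-fold (2.87 to 8.43), and Supt16, a subunit of FACT, in an intron at 4.83-fold. Of 10 histone variant genes outside the rule, Macroh2a1 had 1 peak, 15.3 kb away, at 5.90-fold. Of 40 S-phase genes 4 had a promoter peak (10%, 2.79 to 23.7), among them Gins2, a subunit of the replicative helicase complex, at 7.59-fold, Pcna, the sliding clamp of DNA polymerases, at 7.24-fold and Mcm7, a helicase subunit, at 5.60-fold. These folds lay within the range of the histone peaks. As a check of the cells, 5 of 11 NK marker genes had a peak (45.5%, 16.7 to 76.6), at the promoter in Gzmb and Klre1, and 15, 9.90 and 4.45 kb away in Il2rb, Klrb1c and Klrd1. None of 6 T cell (up to 45.9%), 4 B cell (up to 60.2%) and 4 myeloid (up to 60.2%) marker genes had one, and these intervals overlap that of the NK markers. A peak is not expression, so the check is indirect.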

How the data were processed

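The assay was CUT&RUN on NK cells grown from mouse spleen, with 1 library per group. The submitters' processing notes name SAMtools, Picard, MACS2 and Bowtie2, without saying what each did, and the build mm10. Not given in the sources used here were the q cutoff, the handling of duplicates and of reads with several positions, and the role of the library without primary antibody. Per the file headers, the authors' peak list gives a signal value, taken as the fold (a ratio of pileup plus 1 to background plus 1), the p-value and the q-value, both as −log10, and a score. The tags and background at each summit were recovered by solving the deposited fold and p-value (Poisson), for all 1404 peaks with an error of at most 1.75e-05 in −log10 p, a step tested on simulated data.

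Members were found by symbol, and all 1404 gene identifiers matched the RefSeq gene table (GRCm38.p6), with 10 peaks under another symbol. Promoter peaks were centred at most 1000 bp from the annotated start in the peak list, while shares by start and sequences used the RefSeq promoter table (250 bases before, 50 after). For H4c14, H3c1 and H2ax, absent from it, shares by start used the start in the peak list. The start strand of H2bc21, H3c7 and H2bc4 was not known. Intervals are exact Poisson for folds and Clopper-Pearson for shares (95.0%). The text names every histone gene with a peak, partners in shared promoters, and the genes of the lists with a peak, of which some are not reported here. The members and lists were chosen with earlier results of these data known. H2az1, H2ax and H2ac22, C230035I16Rik and the genes without a peak were named after their values were seen. Alternatives were filters on q and fold, promoter windows of 500 and 3000 bp, the distance from the peak edge, starts near any peak, added variants, the strongest peak per gene, promoter peaks alone, merging within 500 bp and RefSeq starts for summit positions. Python 3.11.15, pandas 2.3.3, numpy 2.4.6 and scipy 1.17.1 were used.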

Additional observations from a re-analysis of the deposited data

How the results depend on the processing

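Of 36 settings tried over 6 results, 33 stayed within 1.5 times the count or within the interval of the median, and 3 moved. Counts and folds cannot change sign, so only the median summit position could have reversed, and it did not. Pairs with a peak between the starts fell from 4 to 2 among the 727 peaks whose −log10 q reached the median, and to 2 among the 687 peaks above the median fold. Histone genes with a peak rose from 18 to 28 when a start within 1000 bp of any peak centre counted. The count was 15 and 13 under the same filters, where 2.89% and 2.73% of all protein-coding genes had a peak. By gene identifier it was 21, an alternative chosen after seeing the data, as were leaving out peaks beside tRNA genes (18) and RefSeq starts. The median fold was 7.41 beside 8.05 over all peaks after the q filter, and 8.0 beside 8.07 after the fold filter, so the histone median lay below the list's there and above it in the full list. The median summit position ran from −232 to −182 bp. Summits of 4 to 15 tags limit every fold. No paired analysis was possible because each group has 1 library and no test was made.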

Other observations

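A histone pseudogene on chromosome 11 that the rule leaves out, H2bu1-ps, had a promoter peak of 9.53-fold (5.28 to 16.1, from 12 tags) at chr11:58954258-58954521, with its summit 120 bp inside the transcript. It was named after its value was seen.

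Every one of the 221 words of 30 bases in the H2bc23 window also stood in a promoter elsewhere. The gene that shared the largest number of them lay outside the rule and was listed as H4bc24.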
